A study of Mus musculus with 18 samples.

Results

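Folr2 and 9 other markers of resident tissue macrophages were followed in bone marrow (BM)-derived macrophages cultured with or without modified LDL. The 10 genes (Folr2, Mrc1, Stab1, Cd163, Lyve1, Cbr2, Pf4, F13a1, Selenop and Maf) were found by their symbols among the 31053 genes of the count table, and each symbol had 1 row. Bulk RNA-Seq was made of 18 libraries from 6 mice of 12 weeks of age on the C57Bl/6J background. In the Slc7a7 LysM-/- mice (knockout, KO, 3 mice) Slc7a7 is targeted in cells that express LysM-Cre, a Cre recombinase driven from the Lyz2 locus and so active in myeloid cells. Part of its RNA remained in these cultures, as given below. The Slc7a7 LysM+/+ mice (wild type, WT, 3 mice) served as their controls. Marrow cells of every mouse were grown for 7 days in recombinant M-CSF or in L-cell conditioned medium, and the labels do not say which of them a library had. The macrophages of each mouse were then split into 3 cultures for 24 h, with 50 μg/mL acetylated LDL (Ac-LDL), with 100 μg/mL oxidized LDL (Ox-LDL) or with PBS (control), giving 6 groups of 3 libraries. The dose of the 2 LDLs differed, and they were each compared with control and not with each other. The comparisons ask how far these cells in culture express resident markers, whether uptake of modified LDL changes them, and whether knockout of Slc7a7, an exporter of cationic amino acids, does.

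Resident macrophages are the long-lived macrophages of a tissue, many of them seeded before birth, and in the artery wall and other organs a perivascular subset is recognised by folate receptor beta (Folr2), the mannose receptor (Mrc1), the hyaluronan receptor Lyve1, the chemokine Pf4 and coagulation factor XIII A (F13a1). Lipid-laden foamy macrophages of atherosclerotic plaques form a separate subset with Trem2, Gpnmb and Lpl among its genes. Maf is a transcription factor that helps to hold macrophages in a differentiated and non-dividing state. BM-derived macrophages arise from marrow progenitors under M-CSF and have never lived in a tissue.

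The libraries held between 1043492 and 1768816 counts (median 1466145), so that 3 counts correspond to 1.67 to 2.85 CPM (counts scaled for library size). Slc7a7 was lower in the knockout groups by 56.0% in control, 87.1% with Ac-LDL and 64.6% with Ox-LDL on mean CPM, and no knockout library reached a wild type library of its medium (exact permutation test, two-sided, p = 0.10 in each medium, the smallest that 3 against 3 allows). All 10 pan-macrophage markers were read, among them Csf1r, Adgre1 and Cd68. Their summed level was 22400 to 37200 CPM in wild type and 14300 to 22800 CPM in knockout libraries, with Lyz2, the locus that carries Cre, at 15500 to 30500 CPM and 7530 to 15300 CPM, while the other 9 markers summed to 5720 to 8270 CPM and 5820 to 8370 CPM. Neutrophil markers summed to 72.9 to 252 CPM in wild type and 25.5 to 141 CPM in knockout libraries. The 9 wild type libraries carry lower library numbers than the 9 knockout libraries, so whatever these numbers mark, which the sources used here do not say, and the genotype cannot be told apart.

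To place the finding on the genome, the promoters of Folr2, for which the set is named, and of Pf4 and Mrc1, whose transcripts were higher with Ox-LDL, are printed 5′ to 3′ from 250 bases before to 50 bases after the start site (RefSeq, GRCm38.p6). Capitals mark a match to 1 of the 5 motifs searched on both strands: TGCTGA (a core of Maf recognition elements), TGANTCA (AP-1), GAGGAAGT (PU.1, the product of Spi1), TATAAA (the TATA box) and TGACNNNGC (the antioxidant response element).
Folr2, distal start, chr7:101857141-101857440, minus strand: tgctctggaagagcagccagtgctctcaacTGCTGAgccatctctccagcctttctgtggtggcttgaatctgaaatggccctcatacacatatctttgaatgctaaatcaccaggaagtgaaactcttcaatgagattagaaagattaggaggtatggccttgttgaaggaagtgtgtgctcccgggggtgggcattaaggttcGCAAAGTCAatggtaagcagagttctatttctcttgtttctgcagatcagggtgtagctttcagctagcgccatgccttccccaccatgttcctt
Folr2, proximal start, chr7:101845282-101845581, minus strand: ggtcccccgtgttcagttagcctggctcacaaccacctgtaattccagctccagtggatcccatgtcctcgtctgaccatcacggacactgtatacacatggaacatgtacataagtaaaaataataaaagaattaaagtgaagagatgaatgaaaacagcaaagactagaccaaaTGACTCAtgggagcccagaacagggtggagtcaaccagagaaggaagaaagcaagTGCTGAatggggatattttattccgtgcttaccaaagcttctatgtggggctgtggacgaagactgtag
Pf4, chr5:90772185-90772484, plus strand: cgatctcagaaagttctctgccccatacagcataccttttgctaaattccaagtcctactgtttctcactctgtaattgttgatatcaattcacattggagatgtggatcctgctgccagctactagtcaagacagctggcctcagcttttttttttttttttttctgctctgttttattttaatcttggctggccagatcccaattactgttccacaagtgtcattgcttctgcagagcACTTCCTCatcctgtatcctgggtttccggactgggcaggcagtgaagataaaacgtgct
Mrc1, chr2:14229164-14229463, plus strand: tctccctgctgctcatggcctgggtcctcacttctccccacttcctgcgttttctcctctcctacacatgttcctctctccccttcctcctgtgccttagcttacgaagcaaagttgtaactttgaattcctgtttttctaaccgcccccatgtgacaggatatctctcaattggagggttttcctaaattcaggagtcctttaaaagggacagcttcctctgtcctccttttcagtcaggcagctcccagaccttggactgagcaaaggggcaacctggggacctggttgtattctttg

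Of the 10 symbols, 8 matched RefSeq entries, with 12 windows in all, and Lyve1 and Maf did not. Both Folr2 windows held TGCTGA, at 220 and 19 bases before the start sites, as did those of Stab1 and Cbr2, in all 4 of 12 windows against 19.5% of the 32851 promoters. The proximal Folr2 window also held TGANTCA, read as TGACTCA 74 bases before the start (7.81% of all promoters), and the distal one TGACNNNGC 45 bases before it (12.4%). The Pf4 window held GAGGAAGT on the opposite strand 10 bases before the start, and this motif, found in 3.2% of all promoters, stood in 4 of the 12 windows, those of Pf4, F13a1 and 2 overlapping windows of Selenop. TATAAA was found in 1 window, of Selenop (13.6% of all promoters). The windows of Mrc1 and Cd163 held none of these letters. TGCTGA can share its last letters with TGANTCA or TGACNNNGC, and no 2 matches overlapped in these windows. Such matches describe the sequence and do not show binding.

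The 10 markers were expressed at very different levels. On CPM per kilobase of annotated exon, the scale on which genes can be compared, the mean over the 18 libraries was 279 for Selenop, 57.8 for Stab1, 36.9 for Maf, 36.3 for Folr2, 27.6 for Pf4, 19.4 for Mrc1, 1.75 for Cbr2, 1.64 for F13a1 and 0.154 for Cd163. Selenop, the secreted selenoprotein that carries selenium between tissues, stood at rank 88 and the scavenger receptor Stab1 at rank 151 by mean CPM among the 12290 genes tested. Maf was at rank 393, Mrc1 at 1468, Folr2 at 3408, Pf4 at 6775 and F13a1 at 8396. Neighbours in the order of per-length levels that were close, such as Maf and Folr2 or Cbr2 and F13a1, did not differ beyond the spread between libraries.

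Lyve1, Cd163 and Cbr2 were barely read or not read at all. Lyve1 (chr7:110850607-110863239) had 0 counts in all 18 libraries, which allows up to 3 counts or 1.67 to 2.85 CPM in a library. Cd163, the haemoglobin scavenger receptor (chr6:124304656-124330527), had 0 to 4 counts a library and 21 in all, with 5 libraries at 0. Cbr2, a carbonyl reductase (chr11:120729489-120732114), had 0 to 6 counts and 60 in all, with 2 libraries at 0, and 15% of the 31-base words in its exons also occur in Gm11771. A difference between groups in these 3 genes was not detectable at this depth. Lyve1 did not pass the filter on low counts and the other 9 members did.

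Folr2 is the receptor that takes up folate into macrophages (chr7:101839988-101857194, with an antisense gene and a pseudogene on the opposite strand). In wild type mice 1, 2 and 3 its level was 31.6, 53.7 and 22.6 CPM in control, 40.8, 68 and 37.4 CPM with Ac-LDL, and 26, 46.3 and 28 CPM with Ox-LDL. In knockout mice 1, 2 and 3 it was 44.6, 82.3 and 68.3 CPM in control, 41, 134 and 100.3 CPM with Ac-LDL, and 37.9, 78 and 68.2 CPM with Ox-LDL. Wild type mouse 2 and knockout mouse 2 were the highest of their genotype in every medium, and knockout mouse 1 lay within the wild type range in every medium.

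The 6 group means of Folr2 ran from 91.9 ± 47.3 CPM (SD, n = 3) in knockout with Ac-LDL, through 65.1 ± 19.1 in knockout control, 61.4 ± 20.9 in knockout with Ox-LDL, 48.7 ± 16.8 in wild type with Ac-LDL and 36.0 ± 16 in wild type control, to 33.4 ± 11.2 in wild type with Ox-LDL. No neighbours in this order differed beyond their spread between mice. That spread does not use the pairing of cultures from the same mouse, and the changes within mice are given below. Most of the spread lay between mice. On the log2 scale the SD between mice of a genotype was 0.56 for Folr2, the largest of the members, and 0.20 remained once mouse and group were fitted. Mrc1 was the next most variable between mice, at 0.53, and Pf4 the least, at 0.20.

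The mannose receptor gene Mrc1, an endocytic lectin (chr2:14229392-14332057, hosting Mir511), was at 66.8, 127 and 68.5 CPM in control, 81.6, 176 and 118 CPM with Ac-LDL and 62.7, 248 and 138 CPM with Ox-LDL in wild type mice 1, 2 and 3. In knockout mice 1, 2 and 3 it was at 76.6, 87.3 and 115 CPM in control, 121, 92.2 and 148 CPM with Ac-LDL and 97.7, 192 and 214 CPM with Ox-LDL. The ranges of the media overlapped in wild type and in knockout, and in every mouse but wild type mouse 1 the Ox-LDL culture was the higher of Ox-LDL and control.

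Pf4, platelet factor 4, is a CXC chemokine best known from platelets (chr5:90772435-90773383). Its level in wild type mice 1, 2 and 3 was 22.3, 12.6 and 10.9 CPM in control, 23.7, 19.9 and 15 CPM with Ac-LDL and 26, 27.2 and 27.4 CPM with Ox-LDL. In knockout mice it was 12.1, 21.1 and 14.8 CPM in control, 16.6, 16.7 and 18.6 CPM with Ac-LDL and 23.6, 20.5 and 28.9 CPM with Ox-LDL. All 3 wild type libraries with Ox-LDL lay above the 3 wild type controls, while in knockout the control library of mouse 2 lay above its Ox-LDL library, the lowest of the 3. The counts behind these levels were 15 to 50 a library. Of the 8 other megakaryocyte and platelet markers, among them Ppbp, Itga2b and Gp9, 0 exceeded 3 counts in any library, and they summed to at most 3.7 CPM.

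F13a1, the catalytic subunit of the clot-stabilising transglutaminase, is read in resident macrophages and in monocytes (chr13:36867178-37050244, with 2 antisense genes on the opposite strand). It was at 13, 11.2 and 14.6 CPM in control, 14.2, 21.4 and 10.2 CPM with Ac-LDL and 12.5, 24.7 and 9.13 CPM with Ox-LDL in wild type. In knockout it was at 8.44, 5.57 and 7.09 CPM in control, 16.6, 9.44 and 8.12 CPM with Ac-LDL and 6.74, 2.74 and 2.89 CPM with Ox-LDL. Wild type and knockout did not overlap in control or with Ox-LDL and overlapped with Ac-LDL, on 4 to 40 counts a library.

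Selenop (chr15:3268547-3280508, opposite to Ccdc152) was at 591, 745 and 911 CPM in control, 1015, 961 and 1322 CPM with Ac-LDL and 730.2, 763 and 1198 CPM with Ox-LDL in wild type mice 1, 2 and 3. In knockout mice it was at 609.6, 538 and 723 CPM in control, 876, 559 and 777 CPM with Ac-LDL and 584, 609 and 739 CPM with Ox-LDL. The 3 wild type libraries with Ac-LDL lay above the 3 wild type controls, and the knockout groups overlapped.

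Stab1, a scavenger receptor that also takes up acetylated LDL (chr14:31139013-31168641), ranged from 350.3 to 824 CPM over all libraries, and both ends were wild type libraries with Ox-LDL. Maf (chr8:115682942-115707794) ranged from 228 to 412 CPM, the narrowest range of the members on a fold scale (1.8 times from the lowest to the highest library). Folr2, by contrast, ranged 5.95 times and F13a1 9.02 times.

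**Figure D1:**
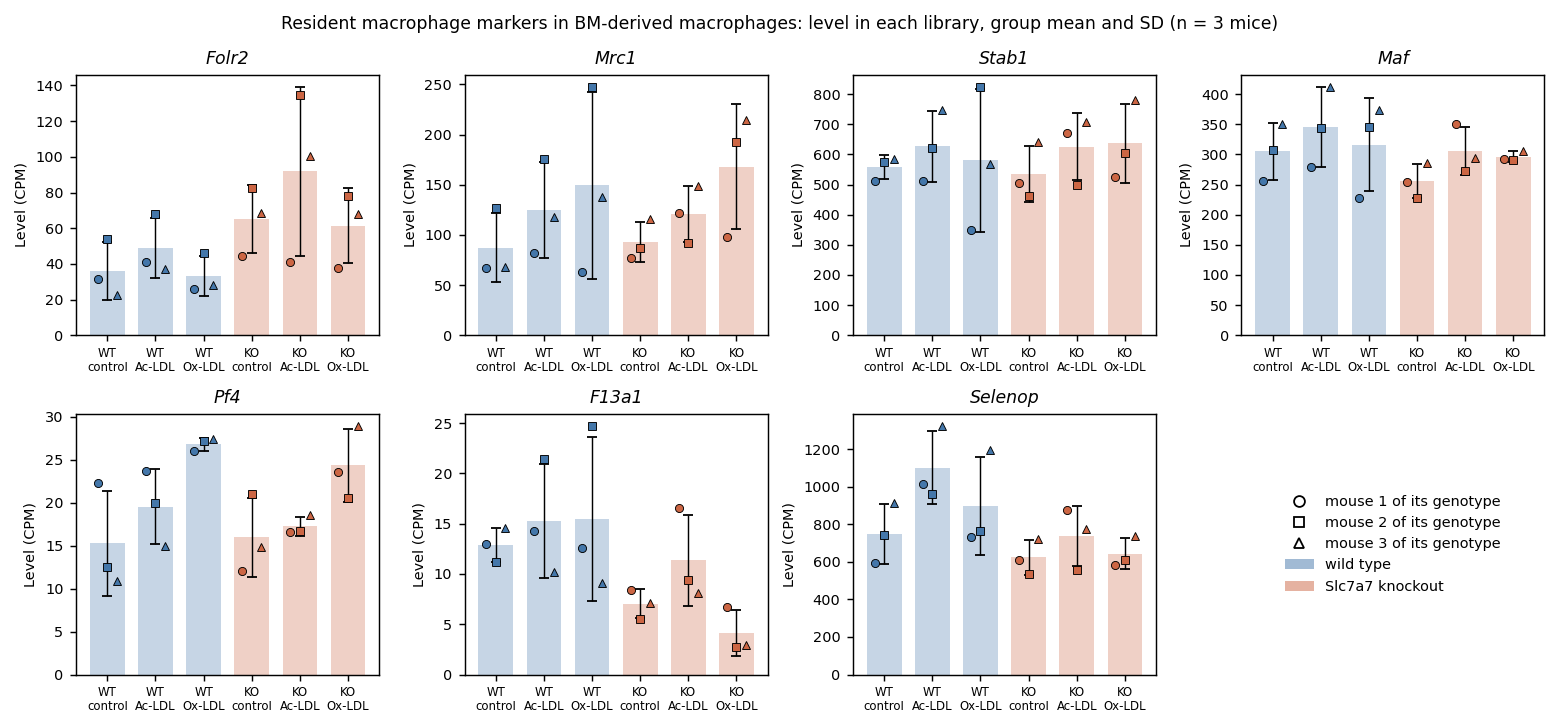
Level in CPM (vertical axis, from 0) of the 7 markers with more than a few counts, in the 6 groups (horizontal axis). Points are libraries, with 1 symbol per mouse of a genotype, bars are group means and error bars the SD of 3 mice. Folr2 separates mice more than media, whereas the 3 wild type Ox-LDL libraries of Pf4 sit between 26.0 and 27.4 CPM, above the controls at 10.9 to 22.3 CPM.

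Modified LDL was compared with control in the 3 mice of each genotype and averaged over both, with edgeR's quasi-likelihood test on the 6 groups and Benjamini-Hochberg adjustment over all 12290 genes. Both LDLs share the control libraries. Since the 3 cultures of a mouse are paired, the values with the mouse as a block are given wherever they change a call. In bulk RNA, fewer cells that express a gene and less of its RNA per cell cannot be told apart.

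Pf4 rose with Ox-LDL. Averaged over the genotypes the log2 fold change was 0.73 (SE 0.19, adjusted p = 0.0186), a 1.66-fold higher level, and 5 of 6 mice had more Pf4 with Ox-LDL than in control (within-mouse log2 changes from -0.03 to 1.22). It was the 1 member of the 9 tested that passed in this comparison, in which 5.39% of all genes did. The call rested on single libraries: the adjusted p was 0.0632 without the control library of wild type mouse 2, 0.0635 without that of wild type mouse 3, 0.0606 without that of knockout mouse 1, 0.051 without that of knockout mouse 3 and 0.0767 without the Ox-LDL library of knockout mouse 3. With the mouse as a block the adjusted p was 0.00378, and it stayed under the threshold in 5 of the 6 fits that left out 1 mouse, with 0.05 without knockout mouse 3.

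Mrc1 had a larger fold change than Pf4 with Ox-LDL and a wider error. Its log2 fold change averaged over the genotypes was 0.82 (SE 0.25, adjusted p = 0.0571), and with the mouse as a block 0.80 (SE 0.12, adjusted p = 2.87e-06). With the block 2 members passed, Mrc1 and Pf4, against 11.3% of all genes. Mrc1 was higher with Ox-LDL in 5 of 6 mice, with within-mouse changes from -0.09 in wild type mouse 1 to 1.13 in knockout mouse 2. Without the block its adjusted p fell below the threshold when the control library of wild type mouse 2 (0.0251), the Ox-LDL library of wild type mouse 1 (0.00438) or that of knockout mouse 1 (0.0244) was left out, and without the Ox-LDL library of wild type mouse 2 the fold change was 0.54 (adjusted p = 0.24). With the block Mrc1 passed whichever of the 6 mice was left out (0.72 to 0.92, adjusted p from 1.33e-09 to 8.79e-05).

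Within each genotype 0 of 9 members passed with Ox-LDL in edgeR's test without the block, against 1.34% of all genes in wild type and 2.32% in knockout. In both genotypes 2 members had an unadjusted p under 0.05, Mrc1 and Pf4, against 10% of all genes in wild type and 12.3% in knockout. DESeq2 called 0 members, beside 183 of 12290 genes in wild type and 299 in knockout. With the mouse as a block Mrc1 passed in wild type (log2 fold change 0.75, SE 0.17, adjusted p = 0.00417) and in knockout (0.85, SE 0.16, adjusted p = 0.000268). Pf4 passed with the block in wild type (0.88, SE 0.26, adjusted p = 0.0428) and had 0.61 (SE 0.25, adjusted p = 0.158) in knockout. The blocked background was 4.39% of genes in wild type and 7.18% in knockout. With 1 mouse left out, the Mrc1 call in knockout held in 6 of 6 fits, while in wild type it was lost without wild type mouse 2 (adjusted p = 0.205) or 3 (0.0993), and the Pf4 call was lost without wild type mouse 2 (0.317) or 3 (0.376) or knockout mouse 3 (0.0614). Whether the genotypes responded differently was tested directly, and the difference (knockout minus wild type) was -0.24 for Pf4 (SE 0.38) and 0.09 for Mrc1 (SE 0.50), both with an adjusted p of 1 in edgeR's test without the block. That fit does not use the pairing of cultures, so these SEs also hold differences between mice. With the block no member passed this test.

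Folr2 did not pass with Ox-LDL in either fit. Its averaged log2 fold change was -0.08 without the block (SE 0.27, 95% interval -0.63 to 0.47), an interval that includes the differences between mice. Within mice the log2 changes ran from -0.268 to 0.295, and 1 of 6 mice had more Folr2 with Ox-LDL than in control. Without the block Stab1, Selenop and Maf were at 0.16 (SE 0.16), 0.15 (SE 0.14) and 0.13 (SE 0.12), none of them past the threshold in either fit. F13a1 was at -0.27 (SE 0.31) in the same fit, with 0.28 (SE 0.38) in wild type and -0.83 (SE 0.50) in knockout. This difference between the genotypes was -1.11 (SE 0.63, adjusted p = 1), and its SE also holds differences between mice.

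With Ac-LDL, 0 of 9 members passed in edgeR's test without the block, averaged (2% of all genes called), in wild type (0.472%) or in knockout (0.521%). DESeq2 called 0 members in each, beside 244 of 12290 genes averaged, 74 in wild type and 76 in knockout. At an unadjusted p under 0.05 in edgeR's test there was 1 member, Selenop, averaged (11.8% of all genes) and in wild type (7.33%), and 0 in knockout (7.53%). With the mouse as a block 3 members passed averaged over the genotypes, against 5.85% of all genes. They were Selenop (log2 fold change 0.40 ± 0.07 SE, adjusted p = 0.000298), Folr2 (0.46 ± 0.11 SE, adjusted p = 0.0098) and Mrc1 (0.44 ± 0.12 SE, adjusted p = 0.017). Without the block their adjusted p values were 0.213, 0.491 and 0.544. The Selenop call held in 6 of 6 blocked fits that left out 1 mouse (0.32 to 0.45, adjusted p up to 0.00198). That of Folr2 was lost without wild type mouse 3 (0.0618), knockout mouse 2 (0.114) or knockout mouse 3 (0.0557), and that of Mrc1 without wild type mouse 3 (0.0957) or knockout mouse 3 (0.0515).

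Selenop and Mrc1 were higher with Ac-LDL than in control in 6 of 6 mice and Folr2 in 5 of 6, the exception being knockout mouse 1 (-0.12). Maf was also higher in 6 of 6 mice, by 0.04 to 0.46 on the log2 scale, and its averaged change of 0.21 (SE 0.07) had an adjusted p of 0.0575 with the block. Within wild type 1 member passed with the block, Selenop (0.56, SE 0.10, adjusted p = 0.000817), where 2.16% of genes did, and it held in 6 of 6 fits with 1 mouse left out. Within knockout 0 of 9 passed with the block, against 2.5% of genes. Of the 9, 4 had an unadjusted p under 0.05, against 12.3% of all genes, and Folr2 came nearest to the threshold (0.46, SE 0.14, adjusted p = 0.0749). Between the genotypes the Selenop response to Ac-LDL differed by -0.31 in the fit without the block (knockout minus wild type, SE 0.29, adjusted p = 1). That fit does not use the pairing of cultures, so its SE also holds differences between mice. With the block no member passed this test. Over the 9 members tested the median log2 fold change with Ac-LDL was 0.40, beside -0.01 over all genes, and with Ox-LDL it was 0.15 beside 0.01.

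**Figure D2:**
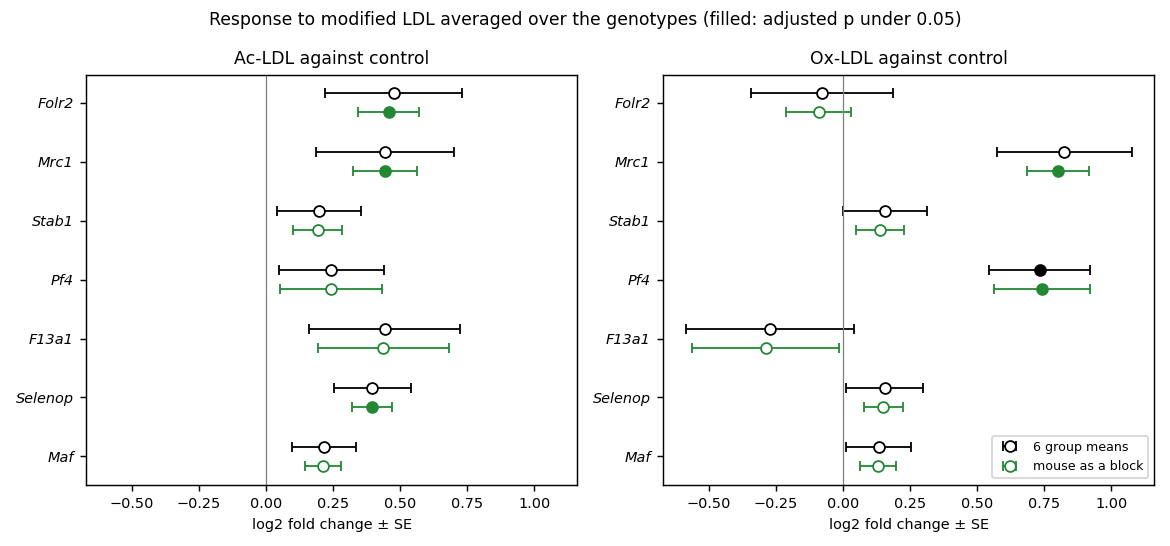
Log2 fold change (horizontal axis, with its standard error) of 7 markers with Ac-LDL and with Ox-LDL against control, averaged over the genotypes. Black points come from the 6 group means and green points from the fit with the mouse as a block, and filled points had an adjusted p under 0.05. Pf4 is filled in both fits with Ox-LDL, Mrc1 in the blocked fit with both LDLs, and Folr2 and Selenop in the blocked fit with Ac-LDL.

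**Figure D3:**
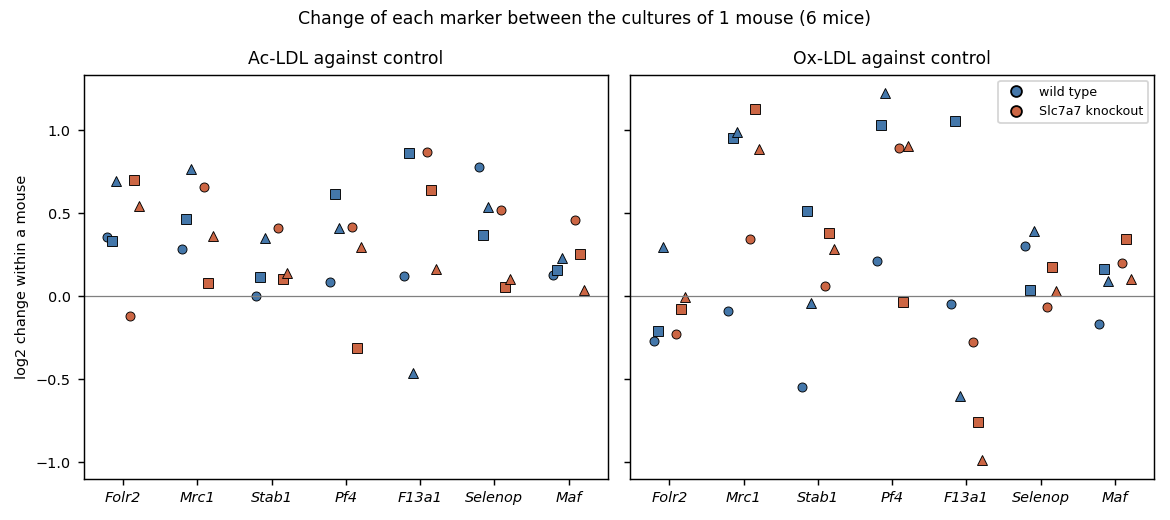
Log2 change of each marker (vertical axis) between the treated and the control culture of the same mouse, for Ac-LDL and Ox-LDL, with wild type in blue and knockout in orange, and a circle, square or triangle for mouse 1, 2 or 3 of its genotype. All 6 mice lie above 0 for Mrc1, Selenop and Maf with Ac-LDL, and 5 of 6 for Mrc1 and Pf4 with Ox-LDL.

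Between the genotypes no member passed the test. Knockout was compared with wild type in each medium and in counts summed per mouse over the 3 media, which gives 1 value a mouse and was tested on 12673 genes. In edgeR's test 0 of 9 members passed in control (0.00814% of all genes called), with Ac-LDL (0.0163%), with Ox-LDL (0.00814%) or in the sums (0.00789%). DESeq2 also called 0 members in each. Of all genes it called 3 in control, 6 with Ac-LDL and 1 with Ox-LDL, of 12290, and 5 of 12673 in the sums. At an unadjusted p under 0.05 there were 2 members in control (4% of all genes), 2 with Ac-LDL (4.89%), 3 with Ox-LDL (4.78%) and 3 in the sums (4.14%). Without the block the 2 tests of a difference between genotypes in the response called 0 of 9 members, with 0% of all genes called. There 0 members had an unadjusted p under 0.05, against 2.66% of all genes for Ac-LDL and 2.75% for Ox-LDL. With the mouse as a block they also called 0 of 9 members. For Ac-LDL 5 of 12290 genes were then called, and 1 member had an unadjusted p under 0.05, against 3.86% of all genes. For Ox-LDL 0 genes were called and 0 members had an unadjusted p under 0.05, against 4.04% of all genes.

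Folr2 had the largest positive value of the 9 members in the sums and with Ac-LDL, while in control Cd163 (1.03, SE 1.54) and with Ox-LDL Cbr2 (1.24, SE 0.89), both at a few counts, had larger ones. In counts summed per mouse its log2 fold change, knockout over wild type, was 0.91 (SE 0.29, unadjusted p = 0.00936, adjusted p = 0.980), and it was 0.84 (SE 0.37) in control, 0.93 (SE 0.35) with Ac-LDL and 0.87 (SE 0.38) with Ox-LDL. Averaged over its 3 cultures, wild type mice 1, 2 and 3 had 32.8, 56.0 and 29.4 CPM and knockout mice 41.2, 98.2 and 79.0 CPM. The genotypes overlapped through wild type mouse 2 and knockout mouse 1, and the 95% interval of the log2 fold change ran from 0.27 to 1.55.

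F13a1 pointed the other way. The log2 fold change in the sums was -0.97 (SE 0.28, unadjusted p = 0.00443, adjusted p = 0.980), with -0.86 in control, -0.46 with Ac-LDL and -1.98 (SE 0.45, unadjusted p = 0.000216, adjusted p = 0.788) with Ox-LDL. The mouse averages were 13.3, 19.1 and 11.3 CPM in wild type and 10.6, 5.92 and 6.03 CPM in knockout, which did not overlap. Selenop was at -0.46 in the sums (SE 0.17, unadjusted p = 0.0185, adjusted p = 0.980), with mouse averages of 779, 823 and 1144 CPM in wild type and 689, 569 and 747 CPM in knockout. The 5 monocyte markers, read mostly through Ccr2, summed to 81.5 to 136 CPM in wild type and 57.0 to 124 CPM in knockout libraries, and the part of these, of the lower neutrophil markers and of Lyz2 in the genotype values was not tested.

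Mrc1 (0.04, SE 0.28), Stab1 (0.02, SE 0.17), Pf4 (-0.11, SE 0.17) and Maf (-0.18, SE 0.14) had values within 2 standard errors of 0 in the sums. For Stab1 the 95% interval was -0.35 to 0.38 and for Pf4 -0.48 to 0.26, while for Mrc1 it ran from -0.57 to 0.66. Over the 9 members the median log2 fold change in the sums was -0.11, beside 0.00 over all genes.

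**Figure D4:**
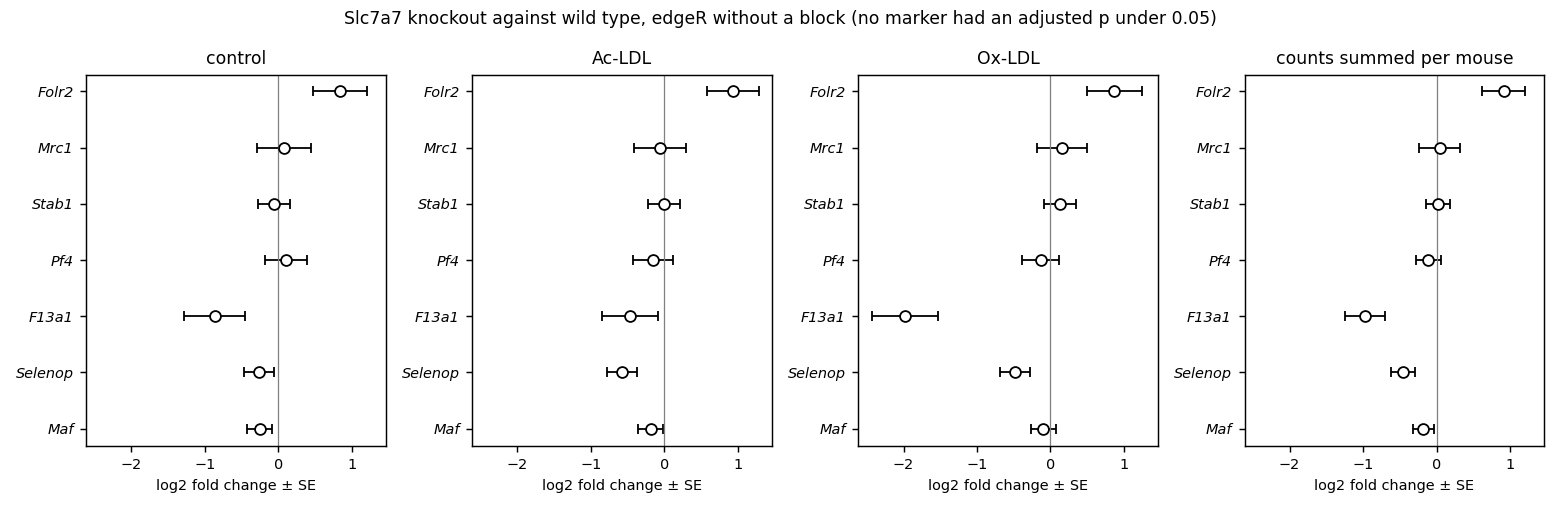
Log2 fold change, knockout over wild type (horizontal axis, with its standard error), of 7 markers in each medium and in counts summed per mouse over the media. Open points had an adjusted p above 0.05, which holds for every marker. Folr2 lies to the right of 0 in the 4 panels (0.84 to 0.93) and F13a1 to the left (-0.46 to -1.98).

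Folr2 varied between libraries with a set of genes outside the members. Among 9830 genes with a mean of at least 5 CPM, the 5 whose log2 CPM was most like that of Folr2 over the 18 libraries were Psd3 (Pearson r = 0.917), Lpl (0.913), Clic4 (0.903), Cdk6 (0.898) and Rtn4 (0.897). Within the groups, with group means removed, r was 0.922, 0.871, 0.867, 0.872 and 0.904. The 18 libraries come from 6 mice, so these values describe the libraries and are not independent. Of the members, r with Folr2 over the 18 libraries was 0.41 for Mrc1, 0.21 for Stab1, -0.03 for Pf4, -0.24 for Maf, -0.39 for F13a1 and -0.43 for Selenop. Within the groups it was 0.56, 0.16, 0.22, -0.18, -0.25 and -0.42 in the same order. Lpl, lipoprotein lipase, has a mean level of 2440 CPM here and belongs to the lipid-associated genes, and with the mouse as a block it passed with Ac-LDL (0.27, adjusted p = 0.00324).

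Other genes of resident macrophages were read alongside, from a list of 30. Of these, 8 were at 3 counts or fewer in every library and were not tested, among them Timd4, Vsig4 and 4 Cd209 genes, as Lyve1 was not. Of the 22 tested, 5 rose and 1 fell with Ox-LDL averaged over the genotypes and 2 rose and 1 fell with Ac-LDL, and with the block 7 rose and 7 fell with Ox-LDL and 7 rose and 2 fell with Ac-LDL. The shares of all genes called in either direction, for this and the lists that follow, were 5.39% with Ox-LDL and 2% with Ac-LDL without the block, and 11.3% and 5.85% with it. Slc40a1, the iron exporter ferroportin, rose with both (Ox-LDL 1.44, SE 0.13, adjusted p = 6.24e-08, and Ac-LDL 0.70, SE 0.14, adjusted p = 0.00403). Gas6, a ligand of the phagocytic receptor Mertk, rose with Ox-LDL (0.85, SE 0.15, adjusted p = 0.000499), as did Cd5l and Mertk itself (0.62 and 0.56, adjusted p = 0.00718 and 0.0461). The complement gene C1qa fell with Ox-LDL (-0.68, adjusted p = 0.0174) and Ninj1 with Ac-LDL (-0.53, adjusted p = 0.00664). The list's most abundant genes, Igf1 and Pltp (777 and 344 CPM), had 0.31 and -0.27 with Ox-LDL and passed with the block alone (adjusted p = 0.000235 and 0.0226). The median of the 22 was 0.19 with Ox-LDL beside 0.01 for all genes.

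In the folate pathway, to which Folr2 belongs, 23 of the 27 uptake and one-carbon genes listed were tested, and 1 rose and 1 fell with Ox-LDL and 1 fell with Ac-LDL. Mthfs, which returns formyl folate to the folate pool, rose with Ox-LDL (0.56, adjusted p = 0.0308), and Aldh1l1, which oxidises formyl folate, fell with Ox-LDL (-1.14, adjusted p = 0.00233) and Ac-LDL (-1.08, adjusted p = 0.00784). The other 21 did not pass with either LDL, averaged. They include the most abundant, Ggh and Mtr, at 149 and 63.0 CPM.

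The relatives of Mrc1, Stab1 and Cd163 moved in both directions. Of 12 family members and scavenger receptors 6 were tested. Msr1, the scavenger receptor that takes up Ac-LDL, rose with Ox-LDL (0.68, adjusted p = 0.000327) and Ac-LDL (0.44, adjusted p = 0.0373), and Scarb1, the HDL receptor, fell with both (-0.78, adjusted p = 1.63e-05, and -0.52, adjusted p = 0.00403). With the block 1 rose and 2 fell with Ox-LDL and 1 rose and 3 fell with Ac-LDL, Marco falling with both. Mrc2 and Stab2, the closest relatives of Mrc1 and Stab1, were not above 3 counts in any library. Of 16 genes of alternative activation, for which Mrc1 is a marker too, 8 were tested and Cd36, the receptor for Ox-LDL, rose with Ox-LDL (1.61, SE 0.14, adjusted p = 2.51e-08) and Ac-LDL (0.66, adjusted p = 0.00846). With the block Il10ra fell with Ox-LDL as well (-0.40, adjusted p = 0.000941). Arg1 and Retnla were among those not tested.

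While Pf4 rose with Ox-LDL, the 4 other CXC chemokines that passed fell. Of 18 coagulation genes and CXC chemokines 14 were tested, and 2 rose and 5 fell with Ox-LDL. Cxcl16, a membrane-bound chemokine and scavenger receptor, fell by 1.16 (adjusted p = 1.8e-08), Cxcl2 by 1.76 (adjusted p = 0.00636), Cxcl10 by 3.32 (adjusted p = 0.00128) and Cxcl1 by 2.05 (adjusted p = 0.0202), the last pair from means of 4.30 to 6.61 CPM in control. Coagulation factor F10 fell too (-1.69, adjusted p = 0.0286), whereas the thrombin cofactor Thbd and the plasminogen activator Plau rose (0.63 and 0.74, adjusted p = 0.013 and 0.014). With Ac-LDL Cxcl16 alone passed, with -0.47 (adjusted p = 0.0062), and with the block 2 rose and 4 fell.

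Among 25 macrophage transcription factors 24 were tested. Without the block, averaged, 1 rose and 3 fell with Ox-LDL, and 1 rose and 1 fell with Ac-LDL. Those that rose are not named here. Maf itself did not pass with either LDL in either fit. Spi1, which encodes PU.1, fell with both (-0.57, adjusted p = 0.000108, and -0.35, adjusted p = 0.0269). Nr1h3, the oxysterol receptor LXR alpha, and Egr2 fell with Ox-LDL (-0.88 and -1.61, adjusted p = 0.000205 and 0.0148). The most abundant, Zeb2 and Mef2a, were at 1310 and 703 CPM. With the block 2 rose and 5 fell with Ox-LDL and 3 rose and 2 fell with Ac-LDL.

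Of 26 genes of other selenoproteins, their synthesis and the Selenop receptors, 25 were tested. With Ox-LDL Gpx1, the glutathione peroxidase of the cytosol, fell (-0.66, SE 0.11, adjusted p = 0.00035). With Ac-LDL 0 passed in edgeR's test without the block (1 at an unadjusted p under 0.05, against 11.8% of all genes, and 1 in DESeq2). With the block 2 rose and 2 fell with Ox-LDL and 1 rose with Ac-LDL, the receptor Lrp1 (0.38, adjusted p = 0.000547). The 13 lipid-associated macrophage genes, read for contrast, had 0 calls with Ox-LDL or Ac-LDL in edgeR's test and in DESeq2 (620 and 244 of 12290 genes called). At an unadjusted p under 0.05 there were 3 with Ox-LDL (16.6% of all genes) and 1 with Ac-LDL (11.8%). With the block 3 rose with Ox-LDL (Trem2, Lgals3 and Mmp12) and 1 rose and 2 fell with Ac-LDL (Lpl up, Fabp5 and Cd63 down). In counts summed per mouse 0 of the 136 genes of these 8 lists that were tested passed between the genotypes in edgeR's test or in DESeq2 (5 of 12673 genes called). Of the 136, 12 had an unadjusted p under 0.05 in edgeR's test, against 4.14% of all genes. By list these were 4 of 13 lipid-associated, 2 of 22 other resident, 2 of 24 transcription factor and 2 of 9 alternative activation genes. There were 1 of 24 folate, 1 of 25 selenoprotein, 0 of 7 scavenger and 0 of 14 coagulation and chemokine genes.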

How the data were processed

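RNA was measured in BM-derived macrophages of 18 samples, and the authors made the libraries with the SMARTer stranded total RNA pico kit, aligned reads with STAR to mm10 and estimated counts per gene with Salmon on Ensembl transcripts. The deposited table holds these expected counts, estimated per gene and not normalized. They need not be whole and were rounded here. The strand setting of the counting is not given in the sources used here, so reads of a gene and its antisense partner may be mixed. Groups came from the labels. The members and all gene lists were chosen with earlier results of these data known.

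Genes were kept by filterByExpr (minimum count 2, minimum total 10), scaled by TMM and tested with edgeR 4.0.16 (quasi-likelihood, 6 group means, R 4.3.3) with Benjamini-Hochberg adjustment and a threshold of 0.05. The median prior degrees of freedom were 11.3 and the common coefficient of variation 0.152 (0.0836 with the mouse as a block). CPM are counts over TMM-scaled library sizes. Log2 CPM used a prior count of 2. Counts of a mouse were summed over media for genotype. Samples of a mouse are paired by the mouse number in the labels: deviations from group means correlated at 0.06 to 0.29 within mice (14 of 18 pairs over 0.1) and at -0.26 to 0.04 between different mice of a genotype. Such deviations sum to 0 over the mice of a group, so these 2 ranges are not independent. The replicate numbers of the genotypes are different mice. Alternatives were DESeq2 1.42.0, library size scaling, the default filter (minimum count 10), no filter, the compared libraries alone and the block. Further ones were limma 3.58.1 (voom with the mouse as a random effect) on all libraries and edgeR without each library (for the sums, each mouse). The block without each mouse was chosen after seeing the data. The edgeR fits of the groups, the block, the compared libraries and the sums, DESeq2 and the limma fit were tested on simulated counts, drawn without differences between mice. Named were all members, the 5 genes most like Folr2 and, of each list, genes that passed (at most 3 of smallest p per comparison) and the 2 most abundant, and genes named beyond these, including those called with the block alone, were chosen after their values were seen. Intervals and limits cover counting error or the spread between these mice. A few genes of the lists are not reported here. Gene positions are from GENCODE M21 (GRCm38).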

Additional observations from a re-analysis of the deposited data

How the results depend on the processing

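Without a filter on low counts (22179 genes) the prior degrees of freedom became infinite, so each gene was given the variance of the trend. The quasi-likelihood dispersion of Mrc1 went from 4.17 to 0.817 and that of Folr2 from 3 to 0.857. Members called then numbered 1 for Ox-LDL in wild type (337 of all genes), 1 for Ox-LDL in knockout (491), 3 for Ac-LDL averaged (438) and 2 for Ox-LDL averaged (873). For genotype they numbered 1 in control (28 of all genes), 1 with Ac-LDL (45), 2 with Ox-LDL (34) and 2 in the sums (73). Folr2 was called in the 4 genotype comparisons and F13a1 in the last pair. These calls rest on that setting.

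With the replicate block, the mouse for treatments, 1 member passed with Ac-LDL and 2 with Ox-LDL in wild type, 1 with Ox-LDL in knockout, and 3 with Ac-LDL and 2 with Ox-LDL averaged, and the block changed no other call of a member. Library size scaling gave 2 for Ox-LDL averaged, beside 673 of 12290 genes. The compared libraries alone gave 1 for Ox-LDL in knockout (Mrc1), beside 751 of 11336 genes, for which the cause was not tested. Leaving out single libraries gave 0 to 2 members for Ox-LDL averaged, beside 514 to 808 of all genes. It gave 0 to 1 for Ox-LDL in wild type (Pf4, without the control library of mouse 1, beside 244 of all genes), and 0 in the other comparisons. With Spearman's rho 3 of the 5 genes most like Folr2 were shared, and all 5 with a prior count of 0.5. The blocked fits with 1 mouse left out were chosen after seeing the data. The limma fit with the mouse as a random effect called 0 members by genotype. Of 1468 alternative values of member fold changes 26 gained and 5 lost significance, none of the called ones changing sign.

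At a median of 1466145 counts a library, a gene such as Cd163 or Cbr2, at a few counts, could not be compared. Each genotype was 3 mice, and the 2 doses of LDL differed.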
